A study of Mus musculus with 9 samples.

Results

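Amino acid transporters were examined in fully grown mouse oocytes, the arrested germ cells of large antral follicles, after conditional knockout of Mtor. Genes of the Slc1, Slc3, Slc6, Slc7, Slc36, Slc38 and Slc43 families were taken by symbol, a family name followed by the letter a and a number, which gave 59 genes of the 24228 in the table. Symbols with a further letter, Slc6a20a and Slc6a20b, fall outside this pattern and are counted with the other genes of amino acid transport. The rule itself uses symbols and no expression value. The MG group carried the floxed Mtor gene with Cre driven by the Gdf9 promoter, and the MZ group carried it with Cre driven by the Zp3 promoter. WT mice served as the controls. Gdf9 is transcribed in oocytes from earlier stages of follicle growth than Zp3, so Cre is present for longer in MG oocytes. Each group had 3 RNA-seq libraries, all labelled C57BL/6. All females had received PMSG (5 IU), a gonadotropin that drives follicle growth, and the oocytes were taken 46 h later. The sample labels give an age of 6 months and the series design gives 23 days, and the sources used here do not settle which applies. How many oocytes or animals a library held is not stated, so p-values measure the spread between libraries, which may be technical.

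Amino acids cross membranes on carriers of a few large families, which differ in substrate, in the ions they use and in the membrane they occupy. Some carriers of the Slc7 family are light chains that reach the cell surface only when bound to a glycoprotein heavy chain of the Slc3 family. In the cytoplasm and the lysosome, amino acid levels are signalled through the Rag GTPases to mTOR complex 1, and the lysosomal carriers Slc38a9 and Slc36a1 take part in that signal. Growing oocytes take up some amino acids by their own carriers and obtain others from the surrounding cumulus cells through gap junctions. In mice Slc38a3 is a known carrier of the cumulus cells.

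Values are FPKM, fragments normalised for transcript length and for the fragments mapped in each library, as deposited. Depth was read from the smallest steps between low values. Relative to the first WT library it summed to 3.53 over the MG libraries, 3.30 over MZ and 2.79 over WT, and 1 fragment on a transcript of 1 kb was worth 1.34 to 2.39 FPKM. A gene near 1 FPKM therefore rests on a handful of fragments, and a value of 0 may be a failed estimate. FPKM sums over all genes ran between 428329 and 718684, with the lowest sums in MG libraries. All 13 oocyte markers were above 0, with summed levels of 17036 to 32649 FPKM in MG, 34660 to 35912 FPKM in MZ and 29024 to 34283 FPKM in WT libraries, so that every MG library was below every MZ library. Of 15 granulosa and cumulus markers 13 were above 0, with Foxl2 and Lhcgr listed at 0 throughout, and their summed level was 22.9 to 40.9 FPKM in MG, 23.6 to 28.3 FPKM in MZ and 21.6 to 34.8 FPKM in WT libraries. Without Cyp19a1, the most abundant of them, the sum was 9.71 to 22.9 FPKM in MG, 8.48 to 14.2 FPKM in MZ and 5.06 to 9.22 FPKM in WT, and every MG library was above every WT library. All 4 theca and stroma markers and all 3 blood and vessel markers were also above 0, at sums of at most 50.1 and 21.5 FPKM in any library. The part of these marker differences in the transporter values was not tested, and in bulk samples fewer cells of a type and less RNA per cell cannot be told apart.

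Mtor itself, read over the whole gene, had 5.25, 6.00 and 4.64 FPKM in the libraries labelled MG, 6.55, 4.67 and 4.39 FPKM in those labelled MZ, and 3.25, 3.33 and 2.95 FPKM in WT. All knockout libraries were above all WT libraries. The difference did not pass the limma test (adjusted p 0.36 for MG against WT and 0.803 for MZ against WT). Fragments from exons outside the deleted part count towards this value, so it checks neither the deletion nor the labels.

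Of the 59 transporter genes, 35 were above 0 in at least 1 library, 16 were above 0 in all 9, and 24 were listed at 0 in all 9. The share above 0 somewhere was 59.3%, against 63.7% of all genes in the table. A small number of genes carried most of the summed level. Slc3a2, Slc6a9, Slc7a11, Slc6a15 and Slc43a3 together made up 68.2% to 80.5% of the FPKM of all 59 in each library, and the leading 10 made up 87.4% to 93.5%. Only 6 genes averaged at least 10 FPKM over the 9 libraries, and 19 averaged at least 1 FPKM. Slc3a2 was the highest in 9 of 9 libraries. The order of Slc6a9 and Slc7a11, next in line, was not fixed, since Slc6a9 was above Slc7a11 in 4 of 9 libraries. Slc7a11 was above Slc6a15 in 8 of 9 libraries, Slc6a15 above Slc43a3 in 6 of 9, and Slc43a3 above Slc38a7 in 9 of 9, although the ranges of each of these neighbouring pairs overlapped across libraries.

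**Figure D1:**
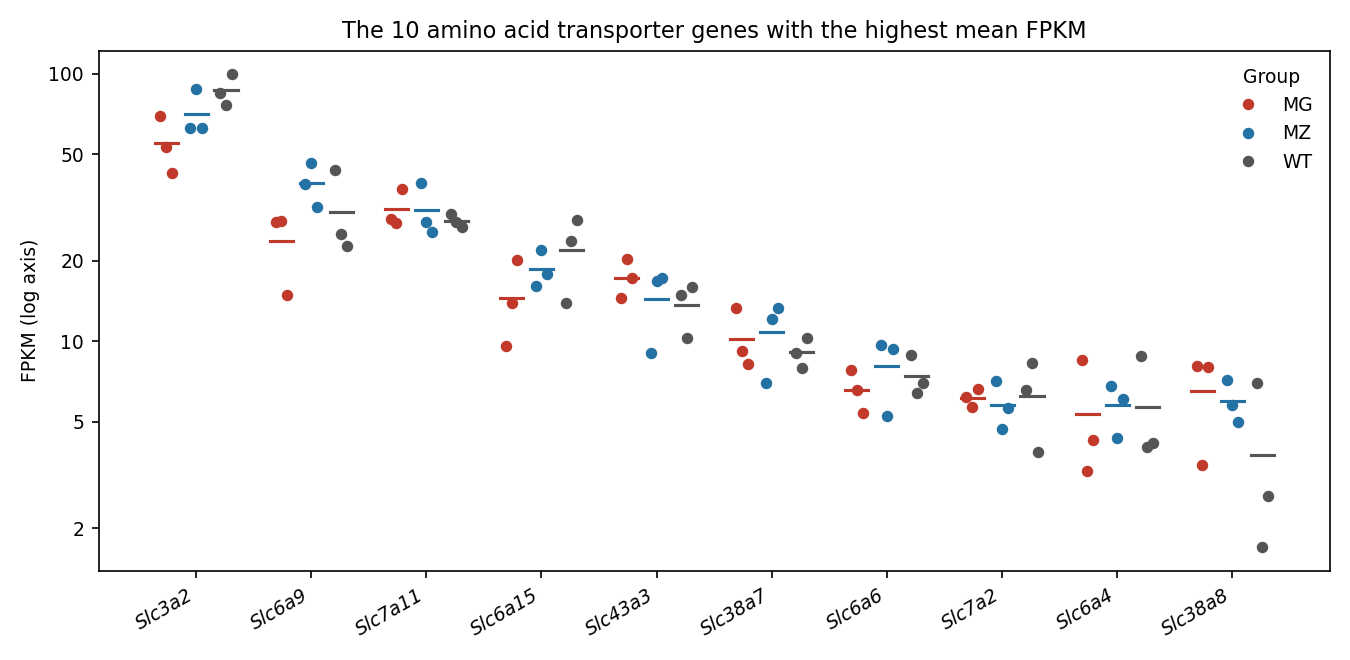
FPKM (log axis) of the 10 transporter genes with the highest mean, in MG, MZ and WT libraries (3 each). Each point is 1 library and each bar is the group mean. Slc3a2 sits highest in every group, and the MG libraries of Slc3a2 all lie below the WT libraries.

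The 59 genes were then compared between the groups. Those with at least 1 FPKM in at least 3 libraries, 22 genes, were tested as log2(FPKM + 1) within a limma fit over 10801 genes, and an adjusted p under 0.05 counted as passing. The other 37 genes were not tested, and no value among them exceeded 2.12 FPKM. No transporter gene passed in any comparison. In MG against WT, 0 of 22 passed by limma, where 0.343% of all tested genes did. In MZ against WT, 0 of 22 passed against a background of 0.037%, and in MG against MZ 0 of 22 passed against 0.13%. At such backgrounds a count of 0 among 22 genes says little about the transporters. Without adjustment, a p under 0.05 was reached by 1 of 22 genes in MG against WT (background 17.7%), by 0 in MZ against WT (background 6.3%) and by 1 in MG against MZ (background 17.6%). The gene was Slc3a2 in MG against WT and Slc6a9 in MG against MZ.

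Tested genes whose libraries did not overlap between the groups were no more frequent than the background. In MG against WT they numbered 4 of 22 (18.2%, background 21.5%). Slc7a1 and Slc38a9 were higher in MG, as were 11.6% of all tested genes, and Slc3a2 and Slc1a1 were lower, as were 9.89%. In MZ against WT there were 2 of 22 (9.09%, background 12.2%), with Slc7a5 higher (background 5.67%) and Slc7a7 lower (background 6.52%) in MZ. In MG against MZ there were 3 of 22 (13.6%, background 25.2%), with Slc7a7 higher (background 12.8%) and Slc6a9 and Slc1a1 lower (background 12.3%) in MG. Slc1a1 reached the filter's 1 FPKM only in MZ and WT libraries, Slc38a9 only in MG and MZ, and Slc7a7 only in MG and WT. Their place among the tested genes rests on the libraries where they were high, so their non-overlap does not support a difference. Marker sums differed between the same groups. MG libraries had more of the granulosa and cumulus markers other than Cyp19a1 than WT libraries, while with Cyp19a1 these groups overlapped. MZ libraries had more of the oocyte markers than MG and WT libraries. The transporter differences went in both directions, and their relation to the marker sums was not tested. The median log2 fold change of the 22 genes was 0.11 in MG against WT, 0.06 in MZ against WT and −0.03 in MG against MZ. Over all tested genes the medians were 0.04, 0.01 and 0.04 in the same comparisons. These comparisons share libraries, so their values are not independent of each other.

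The libraries' FPKM sums bear on these differences. When the libraries were given equal FPKM sums, the median of all tested genes became 0.36 in MG against WT and 0.39 in MG against MZ on the log2 scale, while in MZ against WT it stayed at −0.03. The median of the 22 transporter genes moved with it, to 0.38 in MG against WT, 0.04 in MZ against WT and 0.30 in MG against MZ. As a part of the library's FPKM sum, the 59 genes together held 401 ± 31.4 ppm in MG, 345 ± 21.1 ppm in MZ and 356 ± 13.8 ppm in WT libraries (SD, n = 3 each).

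**Figure D2:**
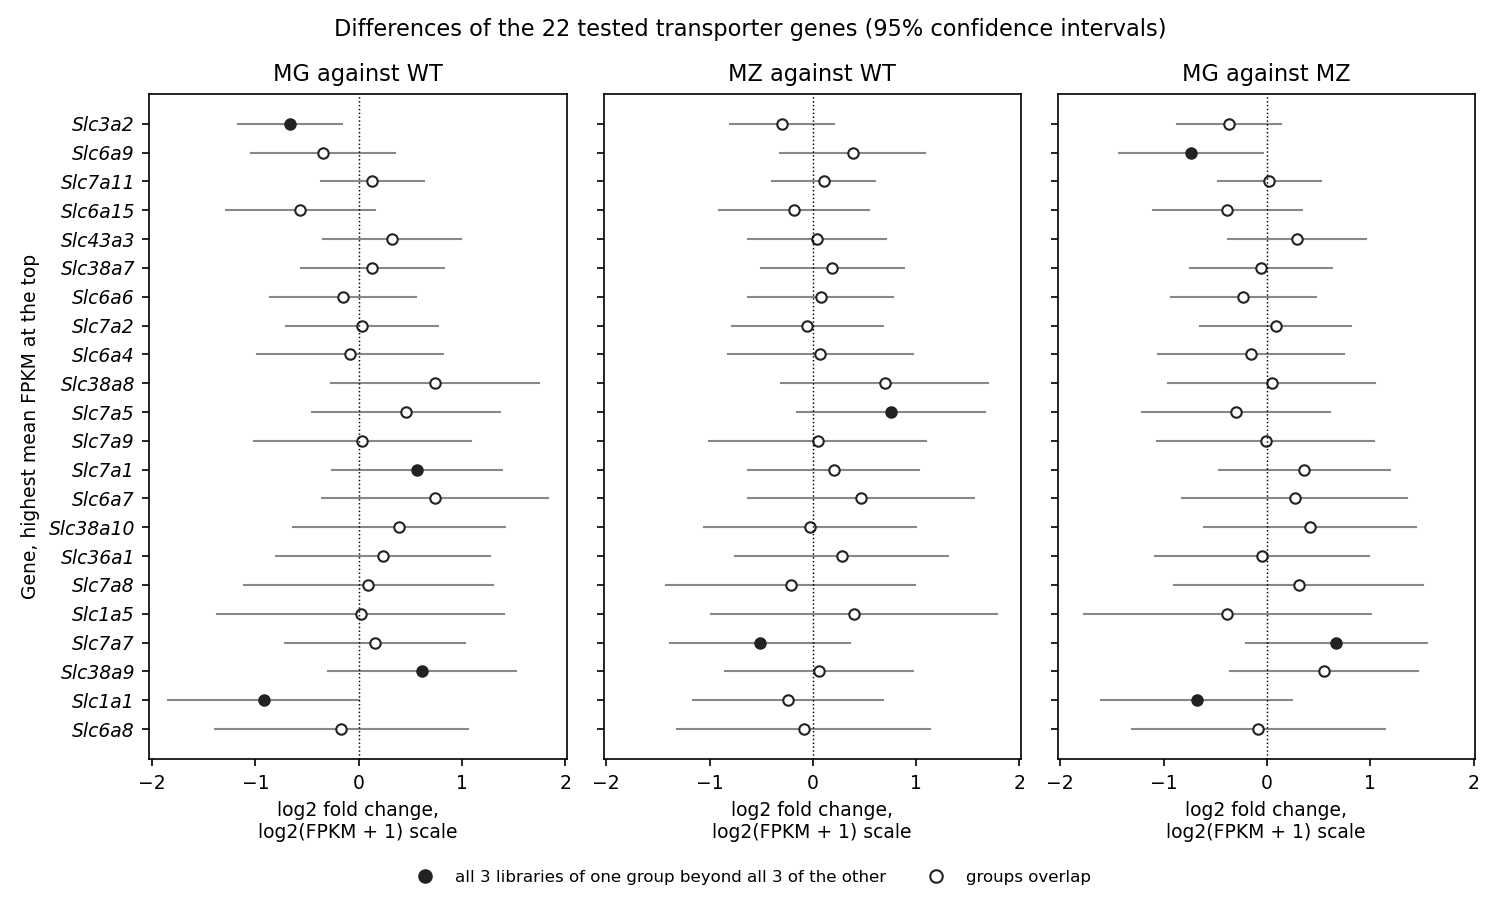
Log2 fold changes of the 22 tested transporter genes on the log2(FPKM + 1) scale, with 95% confidence intervals, with 1 panel per comparison. Filled points are genes whose 3 libraries in 1 group lie beyond the 3 of the other. The intervals of Slc3a2 in MG against WT and of Slc6a9 in MG against MZ lie below 0, and no adjusted p was under 0.05.

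Among the heavy chains, Slc3a2 (chr19:8706882-8723369, GRCm38) was the leading transporter gene and Slc3a1 was listed at 0 in all 9 libraries. Slc3a2, also called CD98 heavy chain, carries its light chains to the plasma membrane. It had 69.6, 53.4 and 42.6 FPKM in MG, 62.5, 87.3 and 62.8 FPKM in MZ, and 84.8, 76.5 and 99.3 FPKM in WT libraries. Every MG library was below every WT library, whereas the MZ libraries overlapped both. The means were 55.2 ± 13.6 FPKM in MG, 70.9 ± 14.3 FPKM in MZ and 86.9 ± 11.6 FPKM in WT (SD, n = 3 each). The log2 fold change of MG against WT was −0.66 (95% confidence interval −1.17 to −0.16), with an unadjusted p of 0.0144 and an adjusted p of 0.176 by limma. For MZ against WT it was −0.30 (−0.80 to 0.20, adjusted p 0.875), and for MG against MZ it was −0.36 (−0.87 to 0.14, adjusted p 0.442).

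The difference in Slc3a2 depended on the scale. With equal FPKM sums, the MG against WT value was −0.28 (adjusted p 0.443) beside an all-gene median of 0.36, and the MG against MZ value changed sign to 0.06. Without 1 library the MG against MZ value came to −0.20 (MG replicate 3) or −0.21 (MZ replicate 2), and the MZ against WT value came to −0.46 without MZ replicate 2. As a part of the FPKM sum, Slc3a2 held 126, 104 and 99.6 ppm in MG, 92.2, 129 and 95.5 ppm in MZ, and 118, 131 and 152 ppm in WT libraries, so on this scale the MG and WT libraries overlapped. In the authors' deposited table the comparison of WT and MG has a p-value of 0.0066 and a q-value of 0.0508 for Slc3a2.

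The light chains that pair with Slc3a2 number 6 in the table, and Slc7a11 held 77.8% to 94.3% of their summed FPKM in each library. Slc7a11 (chr3:50364936-50499087), known as xCT, exchanges cystine for glutamate and feeds glutathione synthesis. Its level was 28.7, 27.7 and 37.2 FPKM in MG, 39.1, 28.0 and 25.6 FPKM in MZ, and 29.9, 28.0 and 26.6 FPKM in WT libraries. The groups overlapped throughout, and the interval of the difference was the narrowest among the tested transporters. It ran between −0.37 and 0.63 around 0.13 in MG against WT, between −0.39 and 0.60 around 0.11 in MZ against WT, and between −0.47 and 0.52 around 0.02 in MG against MZ on the log2 scale. The ratio of Slc3a2 to Slc7a11 FPKM was 2.42, 1.93 and 1.15 in MG, 1.60, 3.12 and 2.46 in MZ, and 2.83, 2.73 and 3.73 in WT libraries. All MG ratios were below all WT ratios, and the MZ ratios overlapped both. The ratio uses the Slc3a2 values again, so it is not separate from the difference given above for that gene. No background share was computed for such ratios.

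The Slc7a11 promoter is shown because it is a known target of Atf4, the transcription factor of the amino acid shortage response, whose level is given further on. Promoter windows covered 250 bases before and 50 bases after each RefSeq start (GRCm38.p6), and 41 of the 59 symbols had at least 1. A symbol counted for a motif if any of its windows held it. The 41 symbols had 62 windows, and all 27025 symbols had 32851, so the shares are not matched for windows per symbol. The C/EBP-ATF response element was searched as TGATGNAAN on both strands, where N is any base. It occurred in 3 of these 41 genes, namely Slc7a11, Slc7a7 and Slc1a4 (7.32%), against 4.5% of all symbols. The Slc7a11 stretch is chr3:50443624-50443703, minus strand, and the Slc7a7 stretch is chr14:54418045-54418104, minus strand. Each is written along its gene, with the matches in capitals. A further matching site of Slc7a7, at this start and shared by an overlapping window, is not printed.
Slc7a11: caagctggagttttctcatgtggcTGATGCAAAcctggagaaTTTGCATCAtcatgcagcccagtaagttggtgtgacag
Slc7a7: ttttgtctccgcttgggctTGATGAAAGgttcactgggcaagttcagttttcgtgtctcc
Slc7a11 holds 1 match on each strand in this stretch. A match describes these letters and does not show that a factor binds there.

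Slc7a5 (chr8:121881146-121907686), or LAT1, exchanges large neutral amino acids such as leucine. It was far below Slc7a11, at 1.94, 3.51 and 1.45 FPKM in MG, 3.26, 2.08 and 3.62 FPKM in MZ, and 1.68, 0.615 and 1.91 FPKM in WT libraries. All MZ libraries were above all WT libraries, and MG overlapped both groups. These values rest on 3, 7 and 4 fragments in MG, 5, 5 and 7 in MZ, and 3, 1 and 3 in WT. On the log2 scale the difference was 0.76 in MZ against WT (−0.15 to 1.66, adjusted p 0.789 by limma) and 0.46 in MG against WT (−0.45 to 1.37, adjusted p 0.606). The MZ value was 0.49 without WT replicate 2 and 1.14 at a pseudocount of 0.1.

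Slc7a7 (chr14:54369442-54420068), or y+LAT1, exchanges cationic for neutral amino acids. It had 1.14, 1.75 and 1.27 FPKM in MG, 0, 0.729 and 0.905 FPKM in MZ, and 1.04, 1.08 and 1.26 FPKM in WT libraries. MZ was lowest, without overlap with either other group, at no more than 2 fragments in any library. On the log2 scale it differed by −0.51 in MZ against WT (adjusted p 0.878) and 0.67 in MG against MZ (adjusted p 0.406) by limma. Without MZ replicate 1, the library at 0, these came to −0.23 and 0.39, and at a pseudocount of 0.1 to −1.48 and 1.75. Its locus overlaps Oxa1l, at 0 to 6.28 FPKM, and the sources used here do not say whether counting used strand. Slc7a8, or LAT2, averaged 1.47 ± 0.536 FPKM in MG, 0.991 ± 0.394 FPKM in MZ and 1.76 ± 1.94 FPKM in WT. Slc7a6, or y+LAT2, was not tested. It had 0.607, 0.939 and 0.681 FPKM in MG, 0, 0.781 and 0.484 FPKM in MZ, and 0, 0 and 0.597 FPKM in WT libraries, with no overlap between MG and WT at 1 or 2 fragments per MG library. Slc7a10 was listed at 0.

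Among the other light chains, Slc7a9 was detected although its heavy chain partner Slc3a1 was listed at 0. The Slc3a1 locus overlaps Prepl, at 2.36 to 6.63 FPKM. In kidney and intestine the pair of Slc7a9 and Slc3a1 takes up cystine and cationic amino acids. Slc7a9 averaged 1.91 ± 0.936 FPKM in MG, 2.18 ± 1.94 FPKM in MZ and 1.80 ± 0.655 FPKM in WT libraries, from 1 to 3 fragments each. Slc7a12, Slc7a13 and Slc7a15 were listed at 0.

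The cationic transporters of arginine and lysine were represented by Slc7a2 and Slc7a1. Slc7a2 was the higher, with means of 6.16 ± 0.488 FPKM in MG, 5.80 ± 1.20 FPKM in MZ and 6.24 ± 2.23 FPKM in WT (SD, n = 3 each). Slc7a1 (chr5:148327410-148399904) had 3.08, 2.15 and 2.08 FPKM in MG, 2.48, 1.39 and 1.23 FPKM in MZ, and 1.60, 1.47 and 0.909 FPKM in WT libraries. Every MG library was above every WT library, from 10, 9 and 12 fragments in MG against 6, 5 and 3 in WT. The log2 fold change of 0.56 in MG against WT had an interval of −0.26 to 1.39 and an adjusted p of 0.471 by limma. Slc7a14 stayed at 0.211 FPKM or less, and Slc7a3 and Slc7a4 were listed at 0.

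Of the pair of dedicated glycine transporters, Slc6a9 was among the leading genes and Slc6a5 was listed at 0. Slc6a9 (chr4:117835258-117869305), known as GLYT1, is the carrier with which mouse eggs and early embryos accumulate glycine to regulate their volume. It had 28.0, 28.1 and 14.9 FPKM in MG, 38.6, 46.3 and 31.8 FPKM in MZ, and 43.6, 25.2 and 22.7 FPKM in WT libraries. All MG libraries were below all MZ libraries, and WT overlapped both. Means were 23.7 ± 7.59 FPKM in MG, 38.9 ± 7.27 FPKM in MZ and 30.5 ± 11.4 FPKM in WT (SD, n = 3 each).

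The log2 fold change of Slc6a9 in MG against MZ was −0.73 (−1.43 to −0.03), with an unadjusted p of 0.0413 and an adjusted p of 0.257 by limma. It was −0.44 without MG replicate 3 and −0.32 with equal FPKM sums. Against WT the values were −0.35 in MG (adjusted p 0.608) and 0.38 in MZ (adjusted p 0.885), and the MZ value was 0.21 to 0.66 without 1 library. In the authors' deposited table Slc6a9 has a q-value of 0.0151 for MG and MZ, a comparison in which 977 genes are under 0.05 there. Of the 59 genes only 5 have a p-value below 1 in any comparison of that table, and Slc6a9 is the only 1 of these with a q-value under 0.05. Ccdc24, which overlaps the Slc6a9 locus, was at 0 to 2.10 FPKM.

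Slc6a15 and Slc6a6 were the next members of the Slc6 family. Slc6a15 (chr10:103367808-103419379), or B0AT2, takes up branched-chain amino acids and proline in brain. It had 9.61, 13.9 and 20.1 FPKM in MG, 16.1, 21.8 and 17.9 FPKM in MZ, and 13.9, 23.7 and 28.3 FPKM in WT libraries. The groups overlapped, and the log2 fold change was −0.56 in MG against WT (−1.29 to 0.16, adjusted p 0.403 by limma). It came to −0.32 without MG replicate 1, −0.36 without WT replicate 3, −0.85 without WT replicate 1 and −0.20 with equal FPKM sums. Slc6a6 (chr6:91684048-91759063), the taurine transporter, had 7.80, 6.59 and 5.38 FPKM in MG, 9.65, 5.26 and 9.35 FPKM in MZ, and 8.91, 6.41 and 6.98 FPKM in WT libraries. Its groups overlapped as well, with differences of −0.15 (−0.85 to 0.55) in MG against WT and 0.08 (−0.62 to 0.78) in MZ against WT.

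The other Slc6 genes of the symbol pattern were lower. Slc6a4, the serotonin transporter, which the symbol rule also takes in, averaged 5.35 ± 2.76 FPKM in MG, 5.76 ± 1.26 FPKM in MZ and 5.67 ± 2.73 FPKM in WT. Slc6a7, a proline transporter of the brain, averaged 2.41 ± 0.933 FPKM in MG, 1.77 ± 0.404 FPKM in MZ and 1.26 ± 1.30 FPKM in WT. The creatine transporter Slc6a8 was above 0 in 5 of 9 libraries, at up to 1.71 FPKM. Slc6a3, Slc6a12 and Slc6a13 were above 0 in 1 to 3 libraries each. Among the genes of the family listed at 0 were the neutral amino acid transporters Slc6a14 and Slc6a19.

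In the Slc38 family, 7 of 11 genes were above 0. Slc38a7 led, and Slc38a3, the carrier of cumulus cells, was listed at 0 in all 9 libraries, as were Slc38a4, Slc38a5 and Slc38a6. Slc38a7 (chr8:95835920-95853577), or SNAT7, exports glutamine from lysosomes. It had 13.3, 9.17 and 8.21 FPKM in MG, 7.01, 12.1 and 13.4 FPKM in MZ, and 9.06, 7.95 and 10.3 FPKM in WT libraries. The groups overlapped, and the log2 fold changes were 0.13 (−0.56 to 0.82) in MG against WT and 0.19 (−0.50 to 0.88) in MZ against WT.

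Slc38a9 (chr13:112656189-112738752), the lysosomal arginine sensor of mTOR complex 1, was detected at a low level. It had 0.968, 1.87 and 1.77 FPKM in MG, 0.488, 1.40 and 0.386 FPKM in MZ, and 0.838, 0.230 and 0.952 FPKM in WT libraries. The lowest MG library was just above the highest WT library, both with 4 fragments, and MZ overlapped each group. The fragments behind these values were 4, 10 and 13 in MG, 2, 9 and 2 in MZ, and 4, 1 and 4 in WT. The log2 fold change in MG against WT was 0.61 (−0.30 to 1.52, adjusted p 0.48 by limma), and in MG against MZ it was 0.55 (adjusted p 0.532).

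Slc36a1 (chr11:55204322-55236330), a proton-coupled amino acid transporter of lysosomes, had 1.68, 0.648 and 2.12 FPKM in MG, 1.27, 0.539 and 3.34 FPKM in MZ, and 0.725, 1.19 and 1.24 FPKM in WT libraries. The 2 highest values, in the third library of MG and of MZ, rest on 9 and 10 fragments, and the groups overlapped. Its difference was 0.23 (−0.80 to 1.27) in MG against WT and 0.28 (−0.75 to 1.31) in MZ against WT. Slc36a4 was above 0 in 2 libraries, and Slc36a2 and Slc36a3 were listed at 0.

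The promoters of Slc36a1 and Slc38a7 are shown because many lysosomal genes carry the CLEAR element, bound by Tfeb, a transcription factor that mTOR complex 1 controls. Its E-box core, CACGTG, reads alike on both strands. The core was present in the promoter windows of 8 of 41 transporter genes (19.5%), against 8.09% of all symbols, and 6 of the 8 were genes other than Slc36a1 and Slc38a7. Among these, Slc1a6, Slc1a7 and Slc38a5 were listed at 0 in every library. Slc36a1 is shown at chr11:55204290-55204342, plus strand, with 2 matches, and Slc38a7 at chr8:95853492-95853551, minus strand, with 1 match. Matches are in capitals.
Slc36a1: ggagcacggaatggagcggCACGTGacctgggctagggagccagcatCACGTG
Slc38a7: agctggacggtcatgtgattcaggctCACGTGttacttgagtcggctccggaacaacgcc
The windows of Slc38a9 and Slc3a2 held neither motif, which says only that these letters are not in them.

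Slc38a8 (chr8:119479574-119501698), a glutamine transporter best known from the retina, had 8.06, 3.46 and 8.02 FPKM in MG, 7.19, 5.75 and 5.00 FPKM in MZ, and 6.98, 1.70 and 2.64 FPKM in WT libraries. The groups overlapped through the first WT library. By log2 fold change it differed by 0.74 in MG against WT (−0.26 to 1.74, adjusted p 0.431 by limma) and 0.69 in MZ against WT (−0.31 to 1.70, adjusted p 0.846). Without WT replicate 1 these were 1.19 and 1.14, and without WT replicate 2 they were 0.41 and 0.36. Slc38a2 (chr15:96687392-96699728), or SNAT2, a carrier of small neutral amino acids that many cells induce on starvation, had 0.961, 0.372 and 0 FPKM in MG, 0.968, 0.928 and 1.53 FPKM in MZ, and 0, 1.37 and 0 FPKM in WT libraries. It did not reach the filter and was not tested. Slc38a1 stayed at or under 1.24 FPKM, Slc38a11 was above 0 in 1 WT library at 1.55 FPKM, and Slc38a10 averaged 1.85 ± 0.365 FPKM in MG, 1.24 ± 0.840 FPKM in MZ and 1.31 ± 1.08 FPKM in WT.

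**Figure D3:**
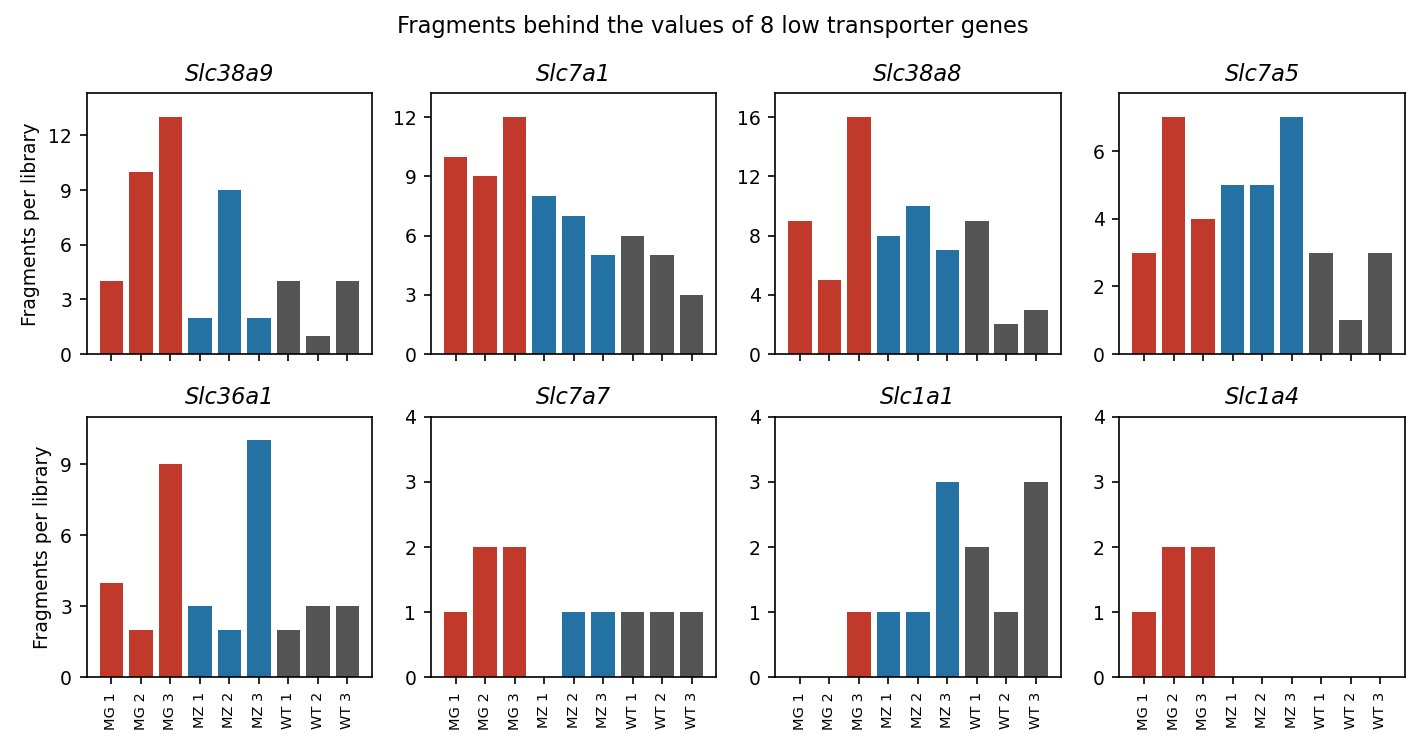
Fragments per library behind the FPKM of 8 low transporter genes, recovered from the steps between values, in MG, MZ and WT libraries. Bars start at 0 and each panel has its own axis. Slc38a9, Slc7a1 and Slc38a8 reach 13, 12 and 16 fragments at most, and Slc1a4 has 1, 2 and 2 fragments in MG and 0 elsewhere.

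The Slc1 family was close to the limit of detection. Slc1a1 (chr19:28835135-28913960), or EAAT3, takes up glutamate, aspartate and cysteine. It had 0, 0 and 0.342 FPKM in MG, 0.614, 0.393 and 1.46 FPKM in MZ, and 1.06, 0.580 and 1.80 FPKM in WT libraries. All MG libraries were below all MZ and all WT libraries, on a total of 1 fragment in MG, 5 in MZ and 6 in WT. This gave a log2 fold change of −0.92 in MG against WT (−1.84 to 0.00, adjusted p 0.283) and −0.68 in MG against MZ (adjusted p 0.43) by limma, and at a pseudocount of 0.1 the values were −2.80 and −2.32.

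Slc1a4, or ASCT1, an exchanger of small neutral amino acids, showed the opposite arrangement at the same depth. It had 0.575, 0.889 and 0.645 FPKM in MG libraries and was listed at 0 in all 6 MZ and WT libraries. In all, 5 fragments lie behind it, and it was below the filter and not tested. Its promoter stretch, chr11:20332710-20332763 on the minus strand, holds 1 match to TGATGNAAN, in capitals on the opposite strand.
Slc1a4: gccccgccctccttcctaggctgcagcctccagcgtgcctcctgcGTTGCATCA
The related exchanger Slc1a5, or ASCT2, a glutamine carrier, averaged 1.29 ± 1.83 FPKM in MG, 1.55 ± 1.01 FPKM in MZ and 1.08 ± 1.22 FPKM in WT, with groups that overlapped. Slc1a3 was above 0 in 1 library, and Slc1a2, Slc1a6 and Slc1a7 were listed at 0.

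Slc43a3 (chr2:84936545-84958509) was the only member of the Slc43 family above 2 FPKM. Its protein is known as a carrier of purine nucleobases, unlike Slc43a1 and Slc43a2, which move large neutral amino acids. Slc43a3 had 14.4, 20.2 and 17.2 FPKM in MG, 9.05, 16.8 and 17.3 FPKM in MZ, and 14.8, 10.3 and 16.0 FPKM in WT libraries. The groups overlapped, with log2 fold changes of 0.33 (−0.34 to 0.99) in MG against WT and 0.04 (−0.63 to 0.71) in MZ against WT. Slc43a1 and Slc43a2 reached at most 0.97 and 1.76 FPKM.

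**Figure D4:**
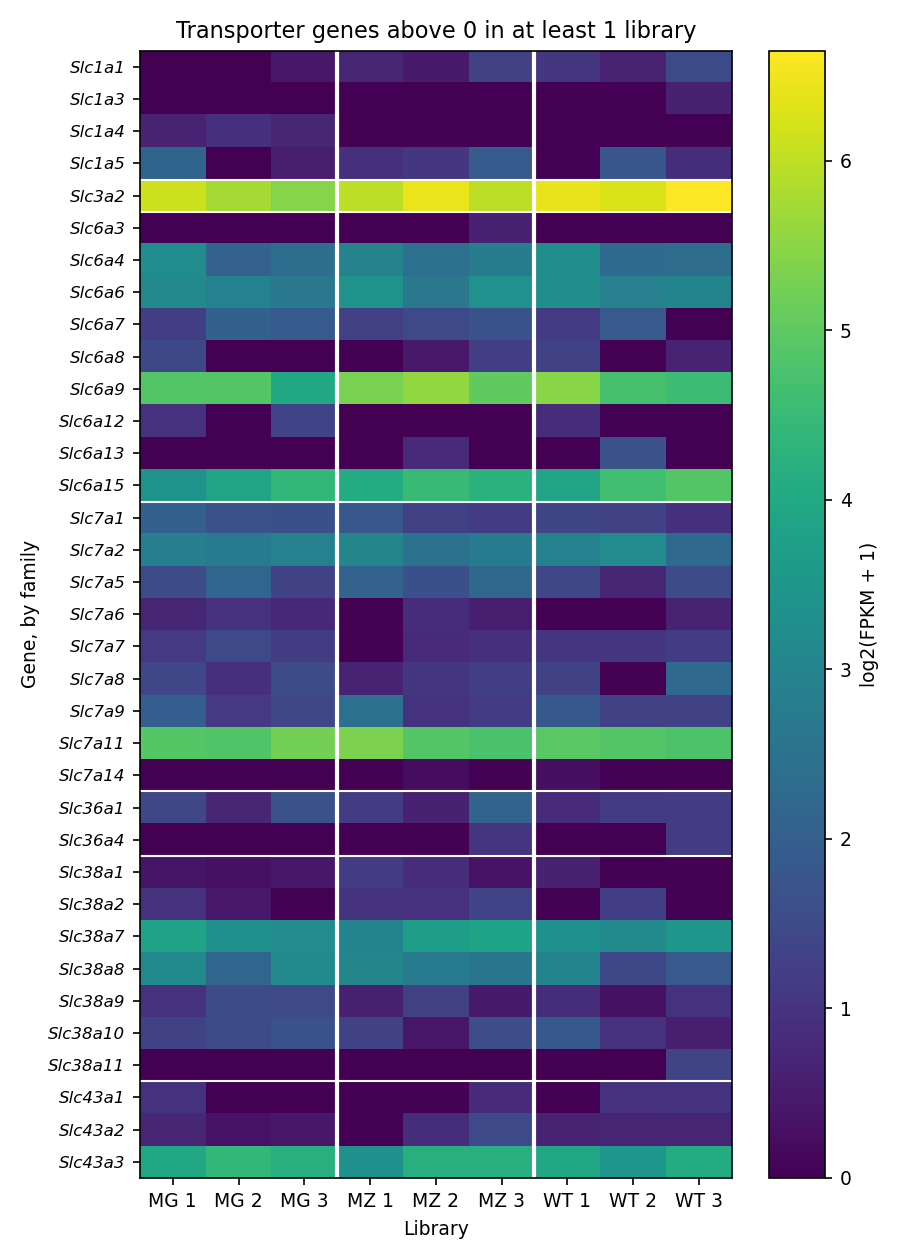
Level, as log2(FPKM + 1), of the 35 transporter genes above 0 in at least 1 library, by family (rows) and library (columns, MG, MZ and WT). Yellow is high and dark purple is 0. Slc3a2, Slc6a9, Slc7a11, Slc6a15 and Slc43a3 form the brightest rows by mean level, but not in every library. Slc38a7 was above Slc6a15 in MG replicate 1, and Slc6a6 was above Slc43a3 in MZ replicate 1.

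Beyond these families, 53 other genes of amino acid transport and sensing were taken, of which 38 were tested. None of the 38 passed in any of the 3 comparisons by limma, and an unadjusted p under 0.05 was reached by 8 in MG against WT, 1 in MZ against WT and 7 in MG against MZ, where 17.7%, 6.3% and 17.6% of all tested genes did. Their median log2 fold changes were −0.04, 0.20 and −0.12 in the same order. Among them were Slc6a20a, a proline carrier, and its relative Slc6a20b, given here after their values were seen. Slc6a20a had 6.51, 8.04 and 7.999 FPKM in MG, 11.7, 5.01 and 3.11 FPKM in MZ, and 3.38, 1.23 and 5.11 FPKM in WT libraries. Every MG library was above every WT library, and MZ overlapped both. The difference in MG against WT was 1.12 (SE 0.48, unadjusted p 0.0406, adjusted p 0.261 by limma). Slc6a20b averaged 1.67 ± 1.44 FPKM in MG, 4.78 ± 2.87 FPKM in MZ and 2.35 ± 0.576 FPKM in WT, with a difference of −1.15 in MG against MZ (adjusted p 0.252 by limma). The lowest p in MG against MZ belonged to Atf4, the transcription factor that acts when amino acids run short. Atf4 had 136, 113 and 53.6 FPKM in MG, 335, 232 and 282 FPKM in MZ, and 327, 162 and 144 FPKM in WT libraries. Every MG library was below every MZ and every WT library. The log2 fold change was −1.56 in MG against MZ (SE 0.37, adjusted p 0.0818) and −1.06 in MG against WT (SE 0.37, adjusted p 0.182) by limma.

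The other genes with the smallest p included members of the lysosomal sensing complex. Lamtor3, a Ragulator subunit, averaged 267 ± 16.7 FPKM in MG and 451 ± 63.1 FPKM in MZ (log2 fold change −0.75, adjusted p 0.1 by limma). Rraga, which encodes a Rag GTPase, averaged 429.8 ± 39.7 FPKM in MG and 632 ± 103 FPKM in WT (−0.55, adjusted p 0.146 by limma). Rragc, its partner, averaged 244 ± 12.7 FPKM in MZ and 174 ± 34.0 FPKM in WT (0.50, adjusted p 0.743 by limma). Chac1, an enzyme that degrades glutathione, averaged 8.87 ± 5.14 FPKM in MG and 2.09 ± 2.37 FPKM in WT (1.89, adjusted p 0.158 by limma). Eif2ak4, the kinase GCN2 that senses uncharged tRNA, averaged 1.83 ± 0.603 FPKM in MZ and 0.675 ± 0.212 FPKM in WT (0.74, adjusted p 0.789 by limma). It reached the filter's 1 FPKM only in MG and MZ libraries. Its place among the tested genes rests on the libraries where it was high, so this value does not support a difference.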

How the data were processed

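RNA of fully grown oocytes was amplified by Smart-seq2 and made into NEBNext Ultra libraries, per the labels' protocols. The authors aligned reads to mm10 with TopHat2 2.0.13 and computed the deposited FPKM with Cufflinks 2.2.1, per the submitters' processing notes. The deposited p-values and q-values are the authors' own, from Cuffdiff per the design text; their fold changes were not used because infinite values are stored as spreadsheet errors. The sources used here do not say how strand was handled. Of 24255 rows, 27 whose symbol had become a date were removed.

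A gene was tested if 3 or more of the 9 libraries reached 1 FPKM, which kept 10801 genes. They were fitted as log2(FPKM + 1) with limma 3.58.1 in R 4.3.3 (trend on the mean level, 3 groups in 1 fit, no block). Tests were two-sided, with Benjamini-Hochberg adjustment over all tested genes and a threshold of 0.05. This scale understates the change of low genes, and no count model was run on FPKM. Fragments were recovered as whole steps within a tolerance of 0.15 for 5305 of 5625 low genes (94.3%), including 23 of the 35 detected transporter genes; they cover counting error only, and amplified reads without molecular identifiers are not independent molecules. Fragment numbers are printed only for those 23. The steps were tested on simulated data.

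Members with a mean of at least 10 FPKM, the heavy chains, 8 genes of known roles and, per comparison, the 5 with the smallest p are given in every library. From the other list, the 2 genes with the smallest p per comparison are named. The members, lists and rules were chosen with earlier results of these data known. Gene coordinates are on GRCm38, transcript lengths are from GENCODE M21 and promoter sequences are from RefSeq (GRCm38.p6). Alternatives covered the pseudocount, filter, scaling, variance model, libraries in the fit, a replicate block and leaving out each library.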

Additional observations from a re-analysis of the deposited data

How the results depend on the processing

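The count of transporter genes passing stayed at 0 in each of 19 other settings and in all 3 comparisons, with a smallest adjusted p by limma of 0.118. Of 267 alternatives of the named genes, 266 kept direction and call. The exception, Slc3a2 in MG against MZ, was 0.062 with equal FPKM sums. In that setting the median of all tested genes was 0.39 on the log2 scale. Why the sign changed was not tested. Changes of the filter, the variance model, the replicate block or the libraries of the third group leave a fold change as it was. For them the kept direction was fixed in advance. Over its alternatives, the Slc3a2 value in MG against WT ran between −0.84 and −0.28. Settings in which a named gene fell under the filter are not among the 267. Slc1a1 had 14 of 19 settings in both of its comparisons, and Slc38a9 had 15 of 19 in MG against MZ. For Slc1a1 the fits without WT replicate 1, WT replicate 3 or MZ replicate 3 are missing, which are libraries that carried its values. Counts over all genes moved more. MG against WT had 37, but 17 without a filter, 66 with equal sums, 21 with quantile normalization, 5 with only the groups compared, and 3 to 24 without 1 library. MZ against WT had 4, but 2 at a pseudocount of 0.1 or 0.5 or without a filter, 0 at 5 FPKM, 1 with equal sums or quantile normalization, 7 without a variance trend, and 0 to 6 without 1 library. MG against MZ had 14, but 6 at a pseudocount of 0.1, 9 without a filter or a trend, 31 with equal sums, 100 with only the groups compared, and 0 to 214 without 1 library, the highest without WT replicate 1. The cause of these moves was not tested. With the replicate block the counts were 13, 0 and 159. Between libraries of the same number, correlations of deviations were −0.07 to 0.07, and 1 of 9 libraries correlated best with its own number. These values give no sign that the numbers pair the samples, but they cannot exclude it. Depth limits genes near 1 FPKM, whose values rest on a few fragments.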
